A study of Drosophila melanogaster with 6 samples.

Results

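The glutathione S-transferase genes of Drosophila melanogaster are described here in sorted midgut progenitor cells, as the 35 of 17807 rows of the expression table whose symbol begins with Gst. The classes were GstD (delta, 11 genes), GstE (epsilon, 14 genes), GstT (theta, 4 genes), GstO (omega, 3 genes), GstZ (zeta, 2 genes) and GstS (sigma, 1 gene). RNA came from GFP-positive intestinal stem cells and enteroblasts, the progenitors of the adult fly gut, sorted from 70 dissected guts per replicate. H1 RNAi flies carried a temperature-sensitive esg driver (esgts) with UAS-GFP and a UAS H1 RNAi transgene, labelled H1 RNAi 1, against the linker histone H1, and control flies carried esgts and UAS-GFP alone. The driver is active in esg-expressing cells, and both groups are labelled as induced for 4 days at 29 °C. The growth text, worded for another transgene, instead has 3-day-old flies moved from 18 °C to 29 °C for 1 day, and which holds here is not settled. The series had 3 H1 RNAi and 3 control libraries, lettered A to C, and the labels do not tie the letters to separate cultures of flies, so the p-values cover only the spread between these libraries, which may be technical.

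Glutathione S-transferases join the tripeptide glutathione to reactive or foreign molecules so that the products can be made harmless and exported. In insects the delta and epsilon classes are expanded, lie in tandem clusters and include enzymes that act on insecticides, plant toxins and products of oxidised lipids. The transcription factor CncC, held in check by Keap1, is known to raise many of them under oxidative or chemical stress, and a GstD1 reporter is a common readout of that response in the fly gut.

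In these cells the family was abundant, and no member passed the test for a difference between H1 RNAi and control. The values are TPM, a transcript abundance divided by the gene's length and by the total of its library, so levels can be compared between genes, while the number of reads behind a value is unknown. Summed over all Gst rows, H1 RNAi A, B and C held 11701, 19501 and 22113 TPM, against 11268, 31279 and 19452 TPM in control A, B and C. That was 1.17%, 1.95% and 2.21% of all TPM in H1 RNAi and 1.13%, 3.13% and 1.95% in control. The control libraries thus spanned the H1 RNAi libraries on both sides.

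**Figure D1:**
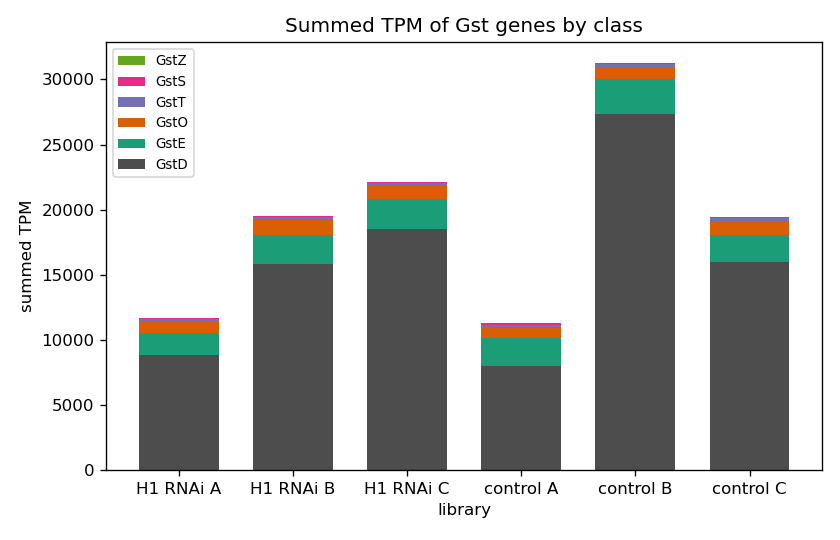
Summed TPM (vertical axis) of the Gst rows in each library (horizontal axis), with 1 colour per class and no error bars, since each bar is 1 library. GstD makes up most of every bar, and control A (11268 TPM) and control B (31279 TPM) are the lowest and the highest.

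The target of the RNAi cannot be checked here, since all 23 His1 copies were listed at 0 in every library. Control B stood slightly apart. Its mean correlation to the other libraries, over the log2 values of the tested genes, was 0.963, against 0.967 to 0.972 for the 5 others. Values without control B are given beside some of the members, though not beside all that it moved strongly.

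Of the 35 rows, 31 reached 1 TPM in at least 3 of the 6 libraries and were tested with the whole table. The 4 others were GstD8 (0.28 to 2.12 TPM over the 6 libraries), GstD11 (at most 0.3 TPM), GstE4 (at most 0.44 TPM) and GstE14, which was listed at 0 in every library. GstE14, also known as Noppera-bo, is known for its role in steroid hormone synthesis. Among the 31 tested members, 0 were higher and 0 were lower in H1 RNAi at an adjusted p under 0.05 (limma on log2(TPM + 1), Benjamini-Hochberg over 8124 genes), where 2.83% of all tested genes passed. At an unadjusted p under 0.05 there were 6 members, against 23.8% of all tested genes, 4 of them with positive fold changes (19.1% of all tested genes) and 2 with negative ones (4.75%). Of these 2, GstZ2 reached the 1 TPM filter only through its control values, so the filter favoured its direction. The median log2 fold change was -0.17 over the tested members and 0.14 over all tested genes. Without control B the members' median was 0.04 and 2 members, GstE8 and GstE9, passed as higher, where 5.54% of all genes passed. Of 13 names of progenitor markers 10 had a row, all 10 were expressed above the filter, and their summed level was 3062 to 3253 TPM in H1 RNAi and 2818 to 3432 TPM in control. The names esg, Dl and hdc matched no row and are not analysed here.

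**Figure D2:**
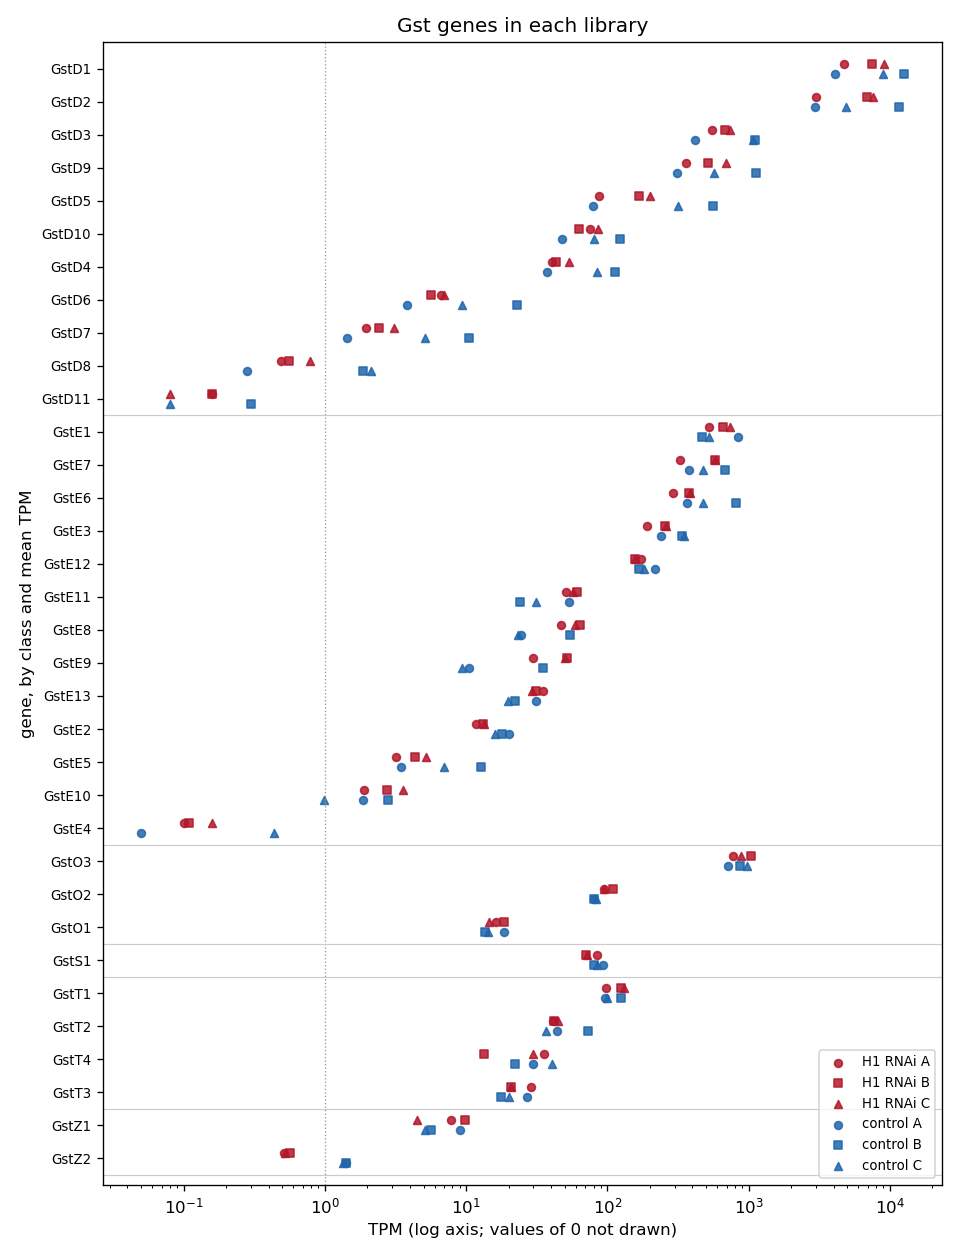
TPM on a log axis (horizontal) of each Gst gene with a value above 0 (vertical, by class and mean level), with H1 RNAi libraries in red above control libraries in blue and circles, squares and triangles for A, B and C. Levels run from under 1 TPM for GstE4 to 12579 TPM for GstD1 in control B, and the blue points of the GstD genes are spread more widely than the red ones.

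The delta class held 70.6% to 87.4% of the family's TPM in each library. Its 11 genes lie together on chromosome arm 3R (12364776 to 12385624 in BDGP6.54, dm6 coordinates), in the order GstD10, GstD9, GstD1, GstD2, GstD3, GstD4, GstD5, GstD6, GstD7, GstD8 and GstD11, the first 3 on the minus strand and the others on the plus strand. GstD1 (FBgn0001149, 3R, 12367817 to 12369268) encodes an enzyme with DDT-detoxifying activity. It was at 4707, 7482 and 9137 TPM in H1 RNAi A, B and C, against 4087, 12579 and 8920 TPM in control A, B and C. The groups overlapped throughout, and over the 6 libraries GstD1 stood between rank 3 and rank 76 of all rows of the table. Its log2 fold change was -0.17 ± 0.43 (SE, n = 3 per group, limma adjusted p = 0.845), with a 95% confidence interval from -1.197 to 0.86, and it was 0.18 without control B (adjusted p = 0.813).

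GstD2 (FBgn0010038), next to GstD1 on the other strand with 2702 bp between them, was the second most abundant member. It was at 2994, 6842 and 7568 TPM in H1 RNAi A, B and C, against 2978, 11696 and 4904 TPM in control A, B and C. The fold change was -0.05 ± 0.55 on the log2 scale (SE, limma adjusted p = 0.970), and again the lowest and the highest library were both controls. Without control B it was 0.49 (adjusted p = 0.541). Within a library the GstD2 level was 0.636, 0.914 and 0.828 of the GstD1 level in H1 RNAi A, B and C, and 0.729, 0.93 and 0.55 of it in control A, B and C. Their ratio thus varied less than either level did.

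GstD3 (FBgn0010039) was at 551, 676 and 744 TPM in H1 RNAi A, B and C, against 414, 1115 and 1078 TPM in control A, B and C (log2 fold change -0.28 ± 0.38, SE, limma adjusted p = 0.694). GstD9 (FBgn0038020) averaged 522 ± 163 TPM in H1 RNAi and 673 ± 419 TPM in control (SD, n = 3 each). The other tested delta genes were lower in level, from GstD5 with 152 ± 58.4 TPM in H1 RNAi and 318 ± 240 TPM in control to GstD7 with 2.49 ± 0.57 and 5.69 ± 4.54 TPM. All 9 tested delta genes had a negative fold change, between -0.74 (GstD5) and -0.05 (GstD2), and this held for 9 with TMM scaling, 8 with quantile normalization, 6 without H1 RNAi A and 4 without control B. Before adjustment 0 of the 9 reached 0.05 (limma), and in each of them the groups overlapped. Their levels move together between libraries, so the shared sign is not 9 separate observations.

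**Figure D3:**
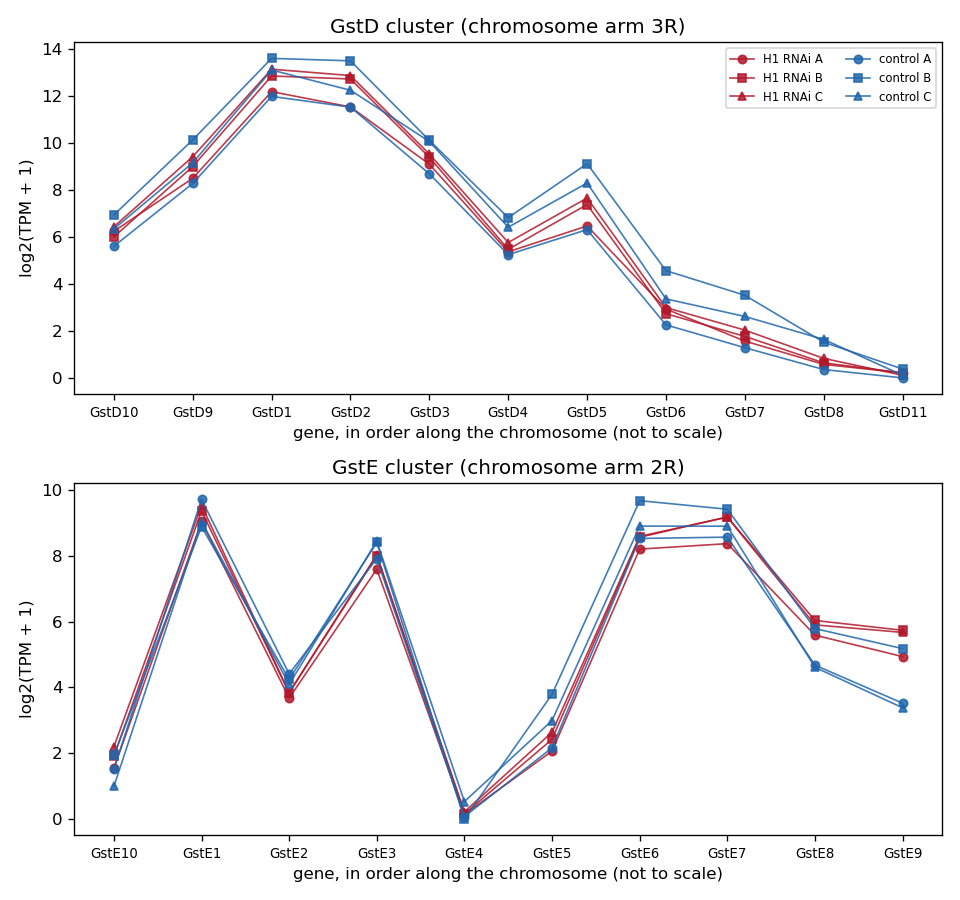
log2(TPM + 1) (vertical axes) of the genes of the GstD cluster (upper panel) and the GstE cluster (lower panel), in chromosomal order (horizontal axes), with 1 line per library, red for H1 RNAi and blue for control. In the GstD panel control B is the highest and control A the lowest line at each of the 9 tested genes, and in the GstE panel control A and control C lie below the H1 RNAi lines at GstE8 and GstE9.

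The delta genes varied between control libraries in the same order. In 9 of 9 tested members control B had the highest value of all 6 libraries and control A the lowest, with control C between them. Control B was highest in 19.3% of all tested genes and control A lowest in 15.3%, and the order of control B above control C above control A held in 15.7%. The level in control B was 2.55 times that in control A for GstD10, 3.08 times for GstD1, 3.93 times for GstD2 and 7.28 times for GstD7. Of the 9 members, 7 had a highest control value at least 3 times the lowest, as had 7.82% of all tested genes and 2.87% of the 1010 with a mean of at least 100 TPM. Between control A and control C alone, 2 of the 9 members reached that ratio, as did 2.58% of all genes. Among the H1 RNAi libraries 0 of 9 members reached that ratio (3.16% of all tested genes), and H1 RNAi C was the highest of the 3 in 9 of 9 (16.6%).

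Other measurements differed in the same libraries. The yolk protein genes Yp1, Yp2 and Yp3, which fat body and ovarian follicle cells are known to express, were at 43.5, 22.6 and 19.4 TPM in control B and at most 1.22 TPM in the other 5 libraries. The 9 fat body markers, none at 0 in all libraries, summed to 2.70 to 4.56 TPM in H1 RNAi and 3.95 to 89.0 TPM in control, the highest being control B. The other 6 of them were at or below 2.11 TPM in every library. The highest of these was apolpp, the lipophorin precursor gene, at 0.70 to 0.94 TPM in H1 RNAi and 1.92 to 2.11 TPM in control, which reached the 1 TPM filter only through its control values. The 19 enterocyte markers, none at 0 in all libraries, summed to 1195, 2563 and 1639 TPM in H1 RNAi A, B and C and to 669, 1817 and 1156 TPM in control A, B and C. Of these 19, 0 passed the test and 4 had an unadjusted p under 0.05, all with positive fold changes (limma), as had 19.1% of all tested genes. Positive fold changes were found for 18 of the 19 and for 5548 of all 8124 tested genes. The median log2 fold change was 0.79 for these markers and 0.14 for all tested genes. The 6 Malpighian tubule markers summed to at most 4.29 TPM and the 8 visceral muscle markers to at most 6.46 TPM. Of the 6 hemocyte markers, crq alone was at 178 to 200 TPM in H1 RNAi and 189 to 243 TPM in control, and the other 5 were at or below 0.17 TPM in every library.

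Markers of enteroendocrine cells, the hormone-secreting cells of the gut, had a lower summed level in H1 RNAi than in control. The 10 markers, none at 0 in all libraries, summed to 1421, 1061 and 1556 TPM in H1 RNAi A, B and C, against 2902, 2341 and 3124 TPM in control A, B and C. The groups did not overlap in this sum, but NPF and Tk, given below, made up most of it. Control B was the lowest control in the sum and in both of these genes, while control A was the lowest control in each of the other 8. Taken singly, 3 of the 10 markers were lower in H1 RNAi without overlap (6.45% of all tested genes) and 2 were higher (24.3%). Of the 10, 2 were lower and 0 higher in H1 RNAi at an adjusted p under 0.05 (limma), where 0.554% of all tested genes were lower. NPF, a gut peptide hormone gene, was at 1197, 891 and 1331 TPM in H1 RNAi A, B and C, against 2348, 1964 and 2616 TPM in control A, B and C (log2 fold change -1.03 ± 0.17, SE, limma adjusted p = 0.0345). Tk, the tachykinin gene, was at 136, 95.8 and 166 TPM in H1 RNAi A, B and C, against 488, 263 and 391 TPM in control A, B and C (log2 fold change -1.502 ± 0.28, SE, limma adjusted p = 0.0452). Both calls held without control B (adjusted p = 0.0200 for NPF and 0.0168 for Tk). Both were lost without any other single library, with adjusted p up to 0.127 for NPF and 0.172 for Tk. With no filter on low values both were lost too (limma adjusted p = 0.0698 for NPF and 0.0845 for Tk). Tk was also lost with TMM scaling (0.0532), quantile normalization (0.0682) and moderation with neither trend nor robust step (0.0514). NPF passed under those settings. Of the other 8 markers, pros, the transcription factor gene that defines these cells, was at 1.17, 1.01 and 1.36 TPM in H1 RNAi A, B and C, against 2.39, 2.46 and 3.00 TPM in control A, B and C (adjusted p = 0.0787). Mip and CCHa2, also peptide hormone genes, averaged 11.1 and 3.28 TPM in H1 RNAi, against 4.29 and 1.09 TPM in control (adjusted p = 0.104 each). The part of other cell types in the levels of the Gst genes, or in the differences of single members, was not tested, and in bulk RNA a change in the number of cells of a type cannot be told apart from a change in RNA per cell.

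The epsilon class held members of high and of low level, from 627 TPM for GstE1 to 0.143 TPM for GstE4 as means over the 6 libraries, besides GstE14 at 0. Its largest cluster holds GstE10 and GstE1 to GstE9 on chromosome arm 2R (18396638 to 18409835), and GstE11, GstE12, GstE13 and GstE14 lie elsewhere on that arm. GstE1 (FBgn0034335) was at 526, 658 and 740 TPM in H1 RNAi A, B and C, against 838, 472 and 526 TPM in control A, B and C. GstE7 (FBgn0063493) was at 329, 579 and 576 TPM in H1 RNAi A, B and C, against 378, 681 and 476 TPM in control A, B and C. GstE6 (FBgn0063494) was at 293, 377 and 384 TPM in H1 RNAi A, B and C, against 367, 816 and 477 TPM in control A, B and C. Control B was thus the lowest library for GstE1 and the highest for GstE6 and GstE7, the adjacent pair near the other end of the cluster. The log2 fold changes were 0.10 ± 0.24 for GstE1, -0.05 ± 0.29 for GstE7 and -0.58 ± 0.29 for GstE6 (SE, limma adjusted p = 0.836, 0.932 and 0.271). Without control B they were -0.06, 0.17 and -0.26 in the same order, and 0 passed.

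GstE9 (FBgn0063491, 2R, 18409048 to 18409835) and its neighbour GstE8 (FBgn0063492, 2R, 18407834 to 18408955) close the cluster, and GstE9 had the largest fold change of the family. It was at 29.6, 52.2 and 49.9 TPM in H1 RNAi A, B and C, against 10.4, 35.2 and 9.40 TPM in control A, B and C. The groups overlapped only through control B, which exceeded H1 RNAi A. The log2 fold change was 1.42 ± 0.49 (SE, n = 3 per group, limma unadjusted p = 0.0245, adjusted p = 0.150), and without control B it was 1.998 with an adjusted p of 0.0118. Over all 14 alternative settings the adjusted p of GstE9 ran from 0.0118 to 0.387. GstE9 shares 40 exon bases with imd, an innate immune adaptor gene on the other strand, which averaged 14.9 TPM in H1 RNAi and 13.6 TPM in control.

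GstE8 was at 47.0, 64.4 and 58.6 TPM in H1 RNAi A, B and C, against 24.5, 54.1 and 23.4 TPM in control A, B and C. Here too control A and control C lay below all H1 RNAi libraries and control B among them. The log2 fold change was 0.82 ± 0.32 (SE, limma adjusted p = 0.181), and 1.197 without control B (adjusted p = 0.0130, from a range of 0.0130 to 0.452 over the alternatives). Relative to GstE7, the next gene of the cluster, the GstE9 level was 0.0898, 0.0902 and 0.0866 in H1 RNAi A, B and C and 0.0277, 0.0516 and 0.0197 in control A, B and C. The GstE8 level relative to GstE7 was 0.143, 0.111 and 0.102 in H1 RNAi and 0.0649, 0.0795 and 0.0491 in control. The GstE6 level relative to GstE7 was 0.891, 0.65 and 0.667 in H1 RNAi and 0.972, 1.2 and 1.0 in control. These ratios within a library do not depend on its scaling, and in none of the 3 did the groups overlap. They were chosen among 9 pairs of members after the values were seen and carry no test.

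GstE2 (FBgn0063498), a low member of the same cluster, was at 11.7, 13.2 and 13.3 TPM in H1 RNAi A, B and C, against 20.2, 17.9 and 16.02 TPM in control A, B and C. The groups did not overlap, as for 6.45% of all tested genes in that direction, and the log2 fold change was -0.46 ± 0.12 (SE, limma unadjusted p = 0.00598, adjusted p = 0.0850). It passed only with quantile normalization (-0.68, adjusted p = 0.0431, where 1.8% of all genes passed), among 14 alternatives with adjusted p up to 0.269. GstE11 (FBgn0034354) was at 50.8, 60.9 and 57.3 TPM in H1 RNAi A, B and C, against 53.6, 24.1 and 31.5 TPM in control A, B and C (log2 fold change 0.69 ± 0.27, SE, limma adjusted p = 0.181). In GstE11 control A lay with the H1 RNAi libraries and control B was the lowest, and without control B the fold change was 0.44 (adjusted p = 0.254). Among the 12 tested epsilon genes 6 had positive and 6 had negative fold changes, with a median of 0.02.

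The omega enzymes, a class that in other species reduces dehydroascorbate, lie side by side on chromosome arm 3L (8518885 to 8524866). GstO3 (FBgn0035904) was at 774, 1042 and 880 TPM in H1 RNAi A, B and C, against 718, 864 and 977 TPM in control A, B and C (log2 fold change 0.08 ± 0.15, SE, limma adjusted p = 0.807). GstO2 (FBgn0035906) was at 95.5, 109 and 94.6 TPM in H1 RNAi A, B and C, against 80.9, 80.2 and 82.8 TPM in control A, B and C. The GstO2 groups did not overlap, as for 24.3% of all tested genes in that direction, and the log2 fold change of 0.29 ± 0.10 did not pass (SE, limma unadjusted p = 0.0279, adjusted p = 0.158). GstO1 (FBgn0035907) was at 16.2, 18.7 and 14.4 TPM in H1 RNAi A, B and C, against 18.6, 13.6 and 14.4 TPM in control A, B and C. GstO2 shares 61 exon bases with se on the other strand, which encodes another omega enzyme of eye pigment synthesis and averaged 10.7 TPM in H1 RNAi and 10.6 TPM in control.

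The sigma, theta and zeta genes were of middle or low level. GstS1 (FBgn0010226), whose enzyme is known to act on the lipid peroxidation product 4-hydroxynonenal, was at 84.2, 70.1 and 71.2 TPM in H1 RNAi A, B and C, against 93.8, 80.5 and 84.9 TPM in control A, B and C (log2 fold change -0.20 ± 0.12, SE, limma adjusted p = 0.353). Among the theta genes, GstT1 (FBgn0050000) was at 97.9, 124 and 130 TPM in H1 RNAi A, B and C, against 96.8, 124 and 99.8 TPM in control A, B and C. GstT2 (FBgn0050005), 107 bp from GstT1, was at 41.1, 41.7 and 44.7 TPM in H1 RNAi A, B and C, against 44.1, 72.6 and 36.8 TPM in control A, B and C. The theta pair thus overlapped between the groups, and in GstT2 control B alone stood above 45 TPM, without which its fold change was 0.08 on the log2 scale. GstT4 (FBgn0030484) was at 35.4, 13.5 and 29.9 TPM in H1 RNAi A, B and C, against 29.5, 22.3 and 40.4 TPM in control A, B and C. GstT3 (FBgn0031117) was at 28.6, 20.9 and 20.8 TPM in H1 RNAi A, B and C, against 27.2, 17.7 and 19.98 TPM in control A, B and C. No theta gene had a fold change beyond -0.28 or 0.13 on the log2 scale, and their adjusted p ran from 0.643 to 0.750 (limma).

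The zeta class in other species includes maleylacetoacetate isomerase, an enzyme of tyrosine breakdown. GstZ2 (FBgn0037697, 3R, 9456815 to 9460652) was at 0.51, 0.57 and 0.52 TPM in H1 RNAi A, B and C, against 1.41, 1.41 and 1.35 TPM in control A, B and C. The groups did not overlap, which among tested Gst genes held for GstZ2 and GstE2 in this direction and for GstO2 in the other, and the libraries of each group lay within 0.1 TPM of each other. Its log2 fold change was -0.64 ± 0.17 on log2(TPM + 1), which understates a change near 1 TPM (SE, limma unadjusted p = 0.00713, adjusted p = 0.0900). It passed only with the mean trend and the robust step of the variance moderation both switched off (limma adjusted p = 0.0250, where 2.94% of all genes passed). The effect of each change alone was not tested. The filter that kept GstZ2 used its control values. The neighbouring GstZ1 (FBgn0037696) was at 7.84, 9.89 and 4.49 TPM in H1 RNAi A, B and C, against 9.12, 5.69 and 5.12 TPM in control A, B and C (log2 fold change 0.12 ± 0.30, SE, limma adjusted p = 0.849).

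**Figure D4:**
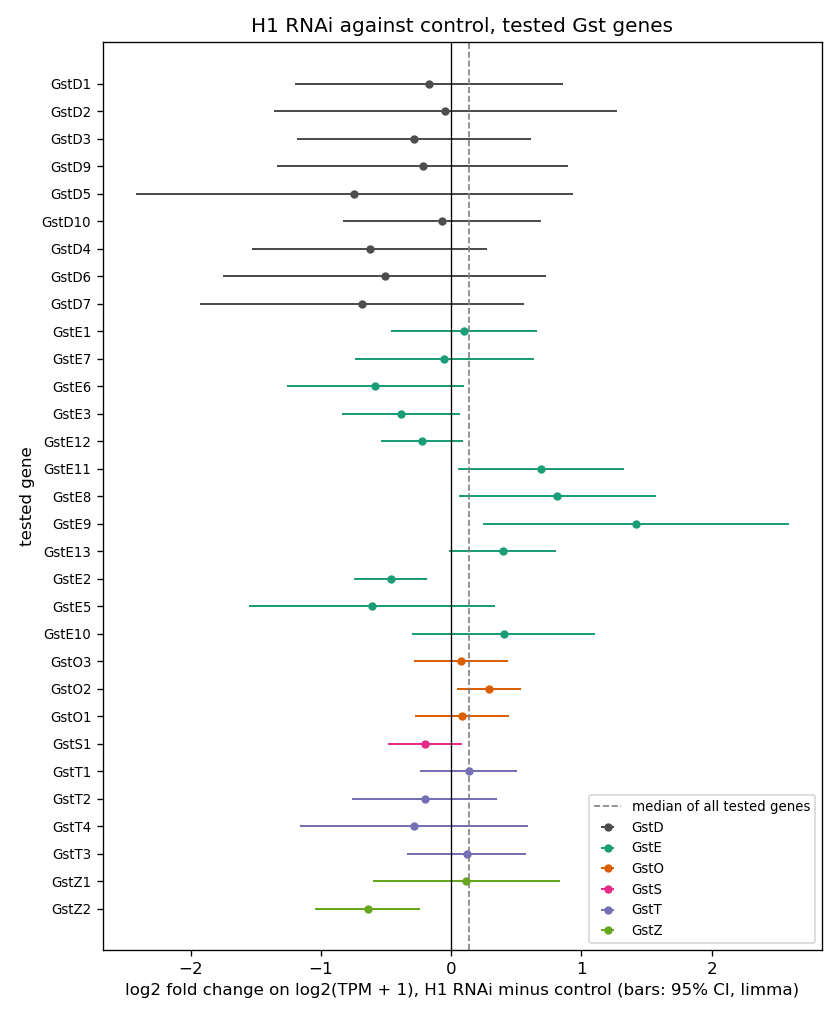
log2 fold change of H1 RNAi over control on log2(TPM + 1) (horizontal axis) for the 31 tested Gst genes (vertical axis, by class), with points for limma's estimate and bars for its 95% confidence interval. The widest bars are those of the delta genes GstD5, GstD2, GstD6 and GstD7, followed by GstE9. GstE9 at 1.42 lies farthest from the dashed median of all tested genes at 0.14.

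How large a difference could have gone unseen varied between classes. The 95% interval held a change of -1 on the log2 scale, a 2-fold lower level in H1 RNAi, for 8 of 9 delta genes, 2 of 12 epsilon genes and 2 of the 10 others. It held a change of 1 in 1 delta and 4 epsilon genes. For 15 of the 31 tested members both were outside the interval, among them all 3 omega genes, GstS1 and 3 of 4 theta genes. The median SE of the log2 fold change was 0.47 for delta genes and 0.16 for all tested genes.

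Related genes gave few calls, and their counts stand against 23.8% of all tested genes at an unadjusted p under 0.05. Among the genes for CncC and its partners, cnc was at 127 ± 10.8 TPM in H1 RNAi and 135 ± 24.0 TPM in control, and Keap1 at 58.4 ± 8.80 and 56.6 ± 21.9 TPM (SD, n = 3 each). With maf-S, the small Maf partner of CncC, ref(2)P, an autophagy receptor and CncC target, and Men, malic enzyme, 0 of 5 tested genes of that list passed in either direction (limma), and 0 had an unadjusted p under 0.05. Keap1 was at 35.1, 78.9 and 55.7 TPM and ref(2)P at 295, 586 and 329 TPM in control A, B and C. Control B held the highest value of the 6 libraries for cnc, Keap1, ref(2)P and Men, as for 19.3% of all tested genes. For maf-S control B was instead the lowest control, with 65.6, 55.8 and 69.9 TPM in control A, B and C. A link of this list to the levels of the delta genes was not tested. Of GST-related genes under other names, 0 of 5 tested passed and 2 had an unadjusted p under 0.05. They were AIMP3, a component of the tRNA synthetase complex with a GST-like fold, at 73.9 ± 3.93 TPM in H1 RNAi and 59.9 ± 2.34 TPM in control (adjusted p = 0.135), and gfzf, which joins zinc fingers to a GST domain, at 20.6 ± 0.36 and 26.4 ± 3.72 TPM (adjusted p = 0.158). Mgstl, the microsomal enzyme, was at 106 ± 2.62 TPM in H1 RNAi and 90.8 ± 13.6 TPM in control.

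Glutathione itself is made in 2 steps, the first by glutamate-cysteine ligase. Its catalytic subunit gene Gclc was at 333 ± 64.0 TPM in H1 RNAi and 276 ± 62.0 TPM in control, and its modifier subunit gene Gclm at 161 ± 27.04 and 168 ± 27.2 TPM (SD, n = 3 each, limma adjusted p = 0.476 and 0.849). Both genes listed for the second step, Gss1 and Gss2, were at or below 0.05 TPM in every library. How reads that match several genes were treated is not stated, so these values alone do not show that the genes were silent. Cbs, a cystathionine beta-synthase gene on the route to cysteine, was at 17.6, 12.1 and 13.2 TPM in H1 RNAi A, B and C, against 7.56, 8.80 and 7.38 TPM in control A, B and C. The Cbs groups did not overlap (24.3% of all tested genes in that direction), with a log2 fold change of 0.77 ± 0.16 (SE, limma adjusted p = 0.0581). In all, 4 genes of this list were tested and 0 passed, with 1 at an unadjusted p under 0.05.

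Among 8 tested genes of thiol redox and NADPH supply 0 passed, and 3 had an unadjusted p under 0.05, all with positive fold changes (limma), as had 19.1% of all tested genes. Zw, which encodes glucose-6-phosphate dehydrogenase, was at 12.8, 25.3 and 20.4 TPM in H1 RNAi A, B and C, against 10.7, 7.39 and 8.42 TPM in control A, B and C (log2 fold change 1.02 ± 0.25, SE, adjusted p = 0.0799). Trxr1, the thioredoxin reductase that also serves glutathione reduction in flies, averaged 372 ± 40.2 TPM in H1 RNAi and 269 ± 32.4 TPM in control (SD, n = 3 each, adjusted p = 0.110). Idh, an NADPH-forming isocitrate dehydrogenase, averaged 120 ± 6.52 and 84.8 ± 27.9 TPM (adjusted p = 0.190). For Zw and Trxr1 every H1 RNAi library lay above every control library, as for 24.3% of all tested genes, and for Idh control B lay within the H1 RNAi range.

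The 1 called gene of the detoxification lists was alpha-Est5, an esterase of the alpha cluster, which was higher in H1 RNAi. It was at 45.05, 60.2 and 48.1 TPM in H1 RNAi A, B and C, against 24.5, 25.1 and 26.7 TPM in control A, B and C. Its log2 fold change was 0.97 ± 0.13 (SE, n = 3 per group, limma adjusted p = 0.0169). The call was lost without H1 RNAi B (adjusted p = 0.0684), H1 RNAi C (0.0824), control A (0.0578) or control C (0.0775). On that list of epoxide hydrolases and esterases 1 of 10 tested genes was higher and 0 were lower, with a median log2 fold change of 0.62 (0.41 without alpha-Est2), and in the background 2.28% of all tested genes were higher. The members next in adjusted p were alpha-Est2 (log2 fold change 0.89, adjusted p = 0.0528), alpha-Est3 (1.29, 0.0581) and alpha-Est1 (0.82, 0.0886), neighbours of alpha-Est5 in the same gene cluster by name. Of these, alpha-Est2 had no control library at 1 TPM, so it passed the filter only through its H1 RNAi values (1.83 to 2.13 TPM, against 0.45 to 0.71 TPM in control).

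For the other conjugating enzymes and exporters no call was made (limma). Of 21 tested UDP-glycosyltransferase genes 0 passed, 4 had an unadjusted p under 0.05 and the median log2 fold change was 0.00. The one with the smallest adjusted p, Ugt35C1, was at 529, 845 and 911 TPM in H1 RNAi A, B and C, against 403, 454 and 456 TPM in control A, B and C (log2 fold change 0.76 ± 0.21, SE, adjusted p = 0.0949). Neither of 2 tested sulfotransferases passed. The one under 0.05 before adjustment was St3, at 25.2 ± 6.62 TPM in H1 RNAi and 13.2 ± 1.45 TPM in control (SD, n = 3 each, adjusted p = 0.0623). The 7 tested ABC transporter genes gave 0 calls, and 0 before adjustment. MRP, which encodes an exporter of glutathione conjugates, was at 93.3, 142 and 143 TPM in H1 RNAi A, B and C, against 46.3, 188 and 79.7 TPM in control A, B and C. Control A held the lowest and control B the highest MRP value of the 6 libraries. Control A was lowest in 15.3% of all tested genes and control B highest in 19.3%. Both held for rdog too, and for none of the other tested transporter genes.

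Of the pathways in which zeta and omega enzymes act, tyrosine breakdown was hardly detected: 2 of 5 matched genes were tested, 0 passed and 1 had an unadjusted p under 0.05. That gene was Hn, phenylalanine hydroxylase, at 0.98 ± 0.29 TPM in H1 RNAi and 2.84 ± 1.54 TPM in control (SD, n = 3 each, limma adjusted p = 0.138). On the pteridine pigment list 0 of 6 tested genes passed, and 3 were under 0.05 before adjustment (limma), against 23.8% of all tested genes. They were cl, at 218 ± 29.7 TPM in H1 RNAi and 123 ± 22.3 TPM in control (adjusted p = 0.0530), bw, a pigment transporter gene, at 14.4 ± 4.38 and 36.5 ± 15.1 TPM (adjusted p = 0.0810), and pr, at 22.7 ± 1.26 and 26.6 ± 0.76 TPM (adjusted p = 0.197).

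**Figure D5:**
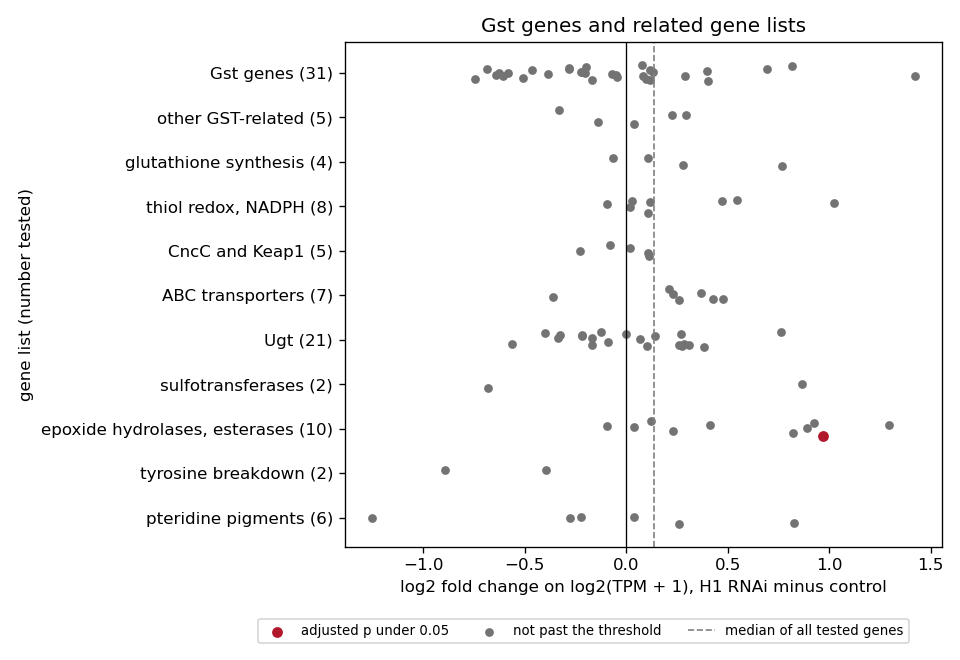
log2 fold change of H1 RNAi over control on log2(TPM + 1) (horizontal axis) of each tested gene on the Gst, detoxification and metabolism lists (vertical axis, marker lists not drawn, with the number tested), with red for genes past an adjusted p of 0.05 and grey for the others, vertical jitter only for legibility. The single red point is alpha-Est5 at 0.97, and the Gst genes lie on both sides of 0.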

How the data were processed

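RNA sequencing was done on 3 H1 RNAi and 3 control libraries, prepared with a stranded mRNA kit, per the labels. The authors deposited 1 table of TPM per gene and library, rounded to 2 decimals. The submitters' processing notes name bcl2fastq and dm6. The aligner, counter, annotation and treatment of strand and of reads that match several genes are not stated in any source used here, so reads may be split unevenly between similar tandem copies of the delta and epsilon genes, and levels of single members carry that uncertainty. Depth cannot be recovered from TPM.

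Columns were matched to samples by the library names in the labels. A name table gave symbols for 17710 of 17807 identifiers, and the 97 others could not be placed. Coordinates are 1-based from Ensembl release 115 (BDGP6.54, dm6 coordinates). The 8124 genes that reached 1 TPM in 3 or more of the 6 libraries were fitted with limma 3.58.1 in R 4.3.3 on log2(TPM + 1), with trend and robust moderation, two-sided, adjusted by Benjamini and Hochberg at 0.05. The fit was tested on simulated data. An exact permutation test of 3 against 3 cannot go below 0.1, so none was used. Summaries and plots were made in Python 3.11.15 (numpy 2.4.6, pandas 2.3.3, matplotlib 3.10.9). The alternatives were other pseudocounts (0.1 and 5), a filter at 5 TPM or none, TMM scaling with trims of 0.3 and 0.05, and quantile normalization. Further ones were moderation with neither trend nor robust step, a replicate block, and each library left out in turn.

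The members and gene lists were chosen with earlier results of these data known. Members were given library by library where they had an unadjusted p under 0.05, were among the 3 highest of their class, or were tested omega, sigma, theta or zeta genes. Of other lists, marker lists included, called genes and up to 3 others with the smallest adjusted p were named, and cnc, Keap1, ref(2)P, Men, Mgstl, Gss1, Gss2, MRP and marker genes were chosen by name, some after their values were seen.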

Additional observations from a re-analysis of the deposited data

How the results depend on the processing

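Over all genes, 230 passed as deposited, 141 with TMM scaling, 146 with quantile normalization, 90 with no filter on low values, 142 with the replicate block and 29 to 450 with each library left out, the highest without control B. For the Gst genes, the count higher in H1 RNAi was 0 under all alternatives except without control B, where it was 2 (GstE8 and GstE9), so that leaving out a library gave 0 to 2. The count lower was 0 except with quantile normalization (1, GstE2) and with neither trend nor robust moderation (1, GstZ2). The replicate letters were not taken to pair the libraries, since they are not stated to mark a shared batch. Between libraries of the same letter the correlation of deviations from the group means was 0.40 for A, 0.136 for B and 0.0931 for C. Between different letters it ran from -0.284 (H1 RNAi C with control A) to 0.169 (H1 RNAi C with control B). Shared structure by letter is thus not excluded, most of all for A. With the replicate block 0 Gst genes passed, 8 with an unadjusted p under 0.05 (limma).

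The median of the Gst fold changes ran from -0.32 with TMM scaling, where that of all genes was -0.0038 instead of 0.14, to 0.04 without control B. Of 279 alternative values of the 20 Gst genes given library by library, 252 had the sign of the deposited scale and 4 were calls. With TMM scaling GstE1, GstO1, GstO3, GstT1, GstT3 and GstZ1 turned negative. Without control B GstD1, GstD2, GstE7 and GstT2 turned positive, and GstE1 and GstT3 turned negative. None of these changes of sign came with a call. Leaving control B out of the range of the delta genes was chosen after seeing the data: 2 of 9 then differed at least 3-fold among controls, instead of 7. The low members GstD8, GstD11, GstE4 and GstE14 are limited by their level near or below 1 TPM.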
